A study of Drosophila melanogaster with 20 samples.

Results

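The genes described here are 6 Drosophila melanogaster genes of salivary gland identity and secretion, fkh, CrebA, sens, trh, Pdi and Sgs1, and the values are those of the ecdysone receptor EcR on the chromatin around them. They belong to a larger set of gland genes and were taken up because they hold an EcR site, so the presence of a site at each of them is not a finding. A site or a peak was assigned to a gene where the midpoint of the site, or the summit of the peak, lay in the gene's span or within 2 kb of either end. That gave 11 of the 3463 sites of the authors' deposited tables and 25 of the 7703 peaks of the 6 deposited lists. All 3463 sites start and end at bounds of listed peaks, so a site with peaks in 1 tissue only entered through that tissue. A higher value in that tissue was then favoured in advance, at these genes and at those named for comparison.

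The assay was CUT&RUN, in which an antibody brings a nuclease to the protein and the DNA around it is released and sequenced. Wings, legs and salivary glands were taken from wandering female larvae at 6 hours before the puparium forms, a stage at which wings and legs are imaginal discs. All 12 libraries behind the peaks came from w; EcR-GFSTF / Df(2R)BSC313 animals, in which a tagged EcR on 1 chromosome faces a deletion on the other, and an antibody against the Flag part of the tag was used. Each tissue gave a supernatant fraction, of released fragments, and a pellet fraction, with 2 libraries per tissue and fraction, each made from the pooled tissue of many animals. Another 8 libraries with IgG, 6 from wings of + / +; + / + ; + / + larvae and 2 from tagged glands, are not described here. In such bulk tissue, fewer cells with EcR at a site and less EcR per cell cannot be told apart.

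EcR pairs with Ultraspiracle and binds DNA with or without its hormone, ecdysone, raising or lowering nearby genes. In the larval salivary gland, ecdysone first turns on the glue genes, whose products fix the pupa to a surface, and the later rise before pupariation ends glue synthesis and sets off glue release and, in time, the death of the gland. Forkhead (fkh), Senseless (sens) and CrebA are transcription factors that keep gland cells alive and secreting, trachealess (trh) is a transcription factor of the embryonic gland duct and the tracheae, Pdi is a disulphide isomerase that folds proteins in the endoplasmic reticulum, and Sgs1 is a glue protein. The tables report binding and not transcripts, so the tissue labels could not be checked against marker expression.

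EcR peaks were most numerous at CrebA, with 12 of the 25 summits, and CrebA alone among the 6 genes had a summit in all 6 lists. fkh had summits in the 2 gland lists, sens in the gland pellet list and trh in the 2 leg lists. Pdi had summits in the 4 wing and leg lists, and Sgs1 in the leg pellet list. Counting both fractions, 5 of the 11 sites had a peak in the leg lists only, beside 18.4% of all 3463 sites, and 2 in the gland lists only, beside 24.8%. Another 2 had peaks in wing and leg (23.7% of all sites), 1 in wing and gland (1.96%) and 1 in all tissues (11.9%). Each list comes from merged libraries, so it carries no replicate error, and a peak found in 1 list only is not a tested difference.

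**Figure D1:**
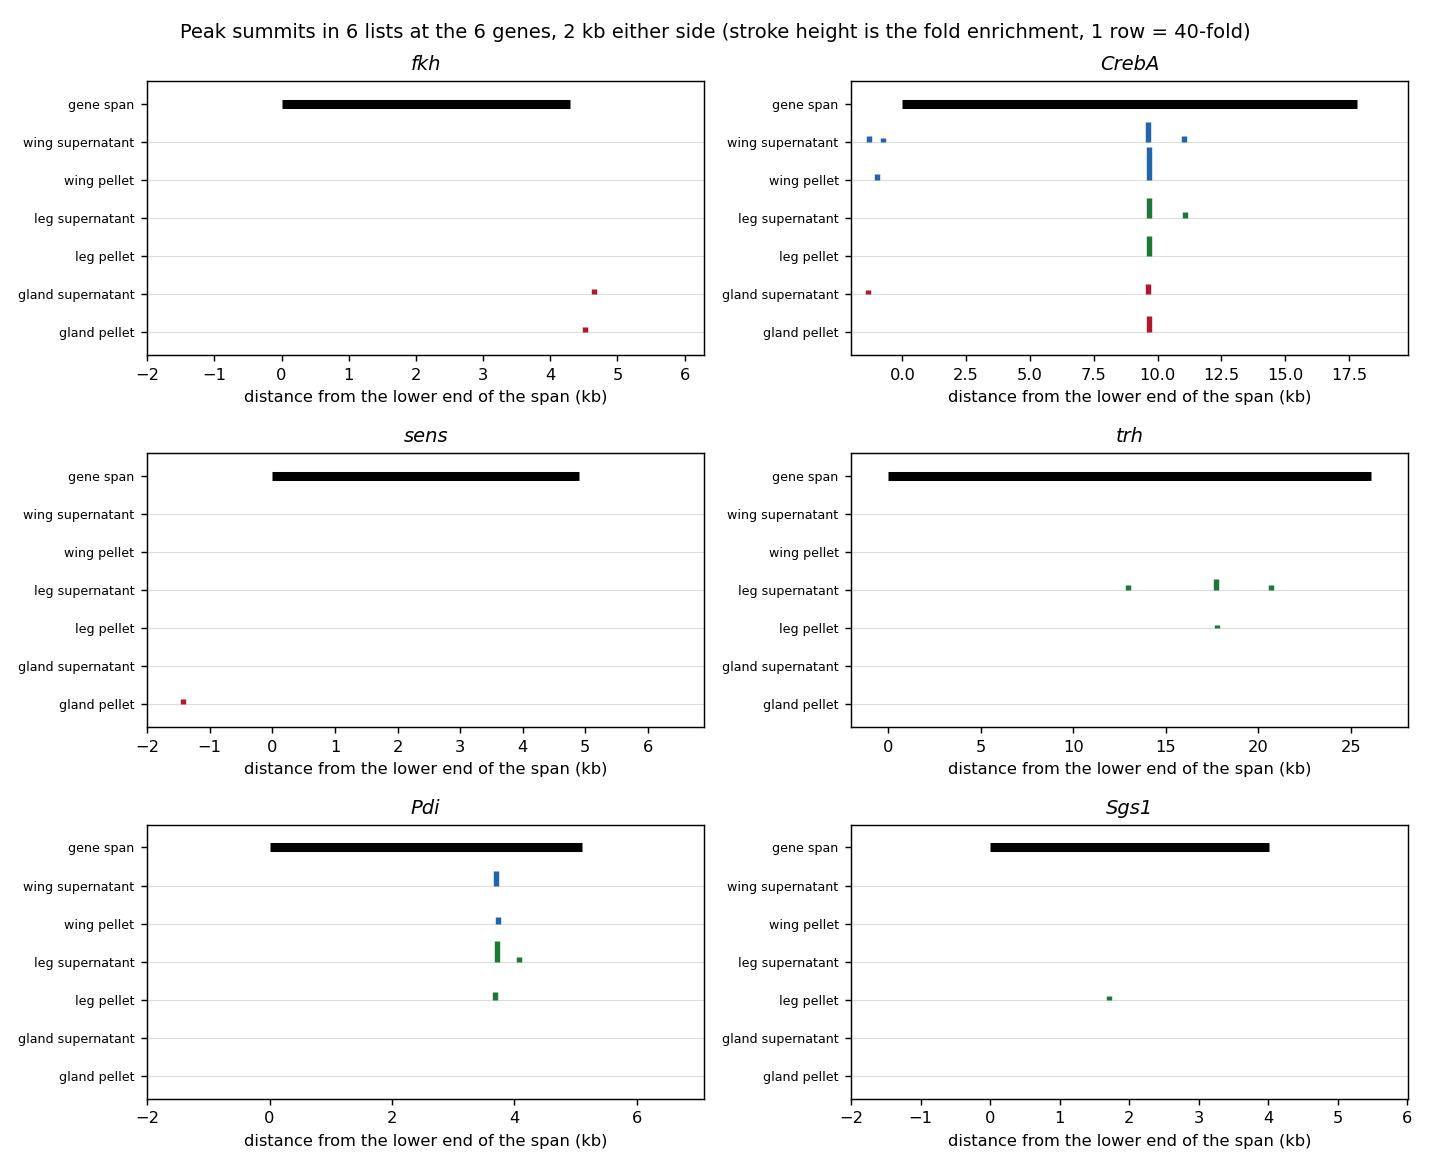
Peak summits at the 6 genes, as distance from the lower end of the gene span in kb (x axis), in 1 row per tissue and fraction; the black bar is the gene span and the height of a stroke is the fold enrichment of the peak. CrebA has a stroke at the same place in all 6 rows, reaching 34.9 in the wing pellet, whereas fkh and sens have strokes in gland rows and trh in leg rows.

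At fkh, EcR signal was higher in the gland than in either disc. The site lies on 3R from 28585430 to 28585665 (dm6), 166 bp beyond the upper end of the fkh span, which runs from 28580976 to 28585264, and no coding gene span holds its midpoint. The next coding genes lie 12.5 kb and more away, Noa36 above and mIF2 below. The log2 fold change in the authors' deposited table was -2.80 for wing against gland (SE 0.48, adjusted p = 7.38e-08), a 6.97-fold higher value in the gland. For leg against gland the authors' deposited table gave -1.84 (SE 0.48, adjusted p = 0.000737), or 3.59-fold. The fkh site was thus called in the same direction against both discs. It had peaks in the gland lists only and so entered through the gland, which favoured this direction in advance. Its wing value was lower than its leg value by 0.96 on the log2 scale in the authors' deposited table, with a 95% interval of -1.93 to 0.021 and an adjusted p of 0.410, so that difference was not called. Both fkh peaks were weak for their lists: the fold enrichment, the authors' value for a peak over background, was 5.17 in the gland supernatant, rank 806 of 1174, and 5.37 in the gland pellet, rank 651 of 936. Their summits were 137 bp apart and the peaks shared 52 bp. The background of the fold enrichments appears to be merged wing IgG libraries, in the gland lists too. Gland and disc fold enrichments may thus not be on equal terms.

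At sens, the pattern across tissues was like that at fkh. The only site, on 3L from 13394759 to 13394861, lies 1367 bp below the sens span (13396228 to 13401125), outside any coding gene span and 4.80 kb from Poc1. The authors' deposited table gave -2.33 for wing against gland (SE of 0.55, adjusted p = 0.000122) and -2.22 for leg against gland (SE 0.58, adjusted p = 0.000727), which are 5.04-fold and 4.67-fold higher values in the gland. Wing and leg differed by -0.11 in the authors' deposited table, with a 95% interval of -1.25 to 1.03. The site had a single peak, in the gland pellet, with a fold enrichment of 5.70, rank 587 of 936, and no peak in the gland supernatant list. It too entered through the gland alone, so a higher gland value was favoured in advance.

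CrebA held 3 sites, and they did not behave alike. The strongest, site 2, lies inside the CrebA span (3L, 15535395 to 15553214), from 15544737 to 15545269, with its midpoint 9.61 kb from the lower end. It had a peak in every list, and the 6 summits fell within 61 bp. The fold enrichment was 21.2 in the wing supernatant, 34.9 in the wing pellet, 21.2 in the leg supernatant, 20.8 in the leg pellet, 10.7 in the gland supernatant and 17.5 in the gland pellet. It was the highest of the 11 sites in each of these lists except the leg supernatant, where Pdi reached 21.6, and it ranked 10 of 1545 in the wing pellet and 17 of 1010 in the leg pellet. Signal at this site was higher in the discs in the authors' deposited table, by 0.90 in the wing (SE 0.25, adjusted p = 0.000952) and 0.83 in the leg (SE 0.27, adjusted p = 0.00571), or 1.86-fold and 1.78-fold. The median of all 3463 sites was itself 0.46 for wing against gland and 0.63 for leg against gland in the authors' deposited tables, and after centring on the chromosome arms neither call remained (adjusted p = 0.0941 and 0.561).

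The other CrebA sites were not called in any comparison. Site 1, from 15534000 to 15534789, ends 606 bp below the span and is the widest of the 11 at 790 bp. It had wing peaks (fold enrichment up to 5.82 in the supernatant and 6.75 in the pellet) and a gland supernatant peak at 4.11. No leg peak overlapped it, yet the authors' deposited table gave a wing against leg value of 0.64, adjusted p = 0.572, with an interval of -0.18 to 1.45. Site 3, from 15546379 to 15546474 inside the span, had peaks in the supernatant lists of wing (6.19) and leg (6.04) and gave 0.71 and 0.83 against the gland in the authors' deposited tables (adjusted p = 0.285 and 0.223). A site just outside the 2 kb limit, 2.76 kb below CrebA from 15532543 to 15532734, had a peak in all 6 lists, from 3.45 in the leg pellet to 15.4 in the leg supernatant. This site lies closer to the coding gene CG43248 than to CrebA. In contrast to site 2 its signal in the authors' deposited tables was on the gland side, at -1.17 against the wing (SE 0.32, adjusted p = 0.000854) and -1.13 against the leg (SE 0.34, adjusted p = 0.00343).

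At trh, signal was higher in the leg than in the gland at 2 of 3 sites, and at 1 of these also in the wing. All 3 lie inside the trh span (3L, 366524 to 392633), within 7832 bp of each other, and had peaks in leg lists only. They thus entered through the leg, so higher leg values at trh were favoured in advance. Site 3, from 387153 to 387237, gave 3.08 for leg against gland in the authors' deposited table (with SE 0.85, adjusted p = 0.00145), an 8.47-fold higher value that ranked 42 from the top among 3463 sites. For wing against gland it gave 2.37 in the authors' deposited table (with SE 0.84, adjusted p = 0.00853), although no wing list had a peak there. Site 1, from 379406 to 379504, gave 2.59 for leg against gland (SE 0.81, adjusted p = 0.00658) and 0.88 for wing against gland (adjusted p = 0.290) in the authors' deposited tables. Its difference between wing and leg, -1.71 in the authors' deposited table with an interval of -2.93 to -0.49, had an adjusted p of 0.142 and was not called. Site 2, from 384163 to 384329, had the strongest trh peak, 11.1 in the leg supernatant, beside 3.33 in the leg pellet. It was not called in the authors' deposited tables, with 1.26 for leg against gland (SE 0.75, adjusted p = 0.144) and 0.13 for wing against gland. Sites 1 and 3 had mean normalised counts of 3.21 and 3.15 in the authors' deposited tables, ranks 3301 and 3314 of 3463, so both large fold changes rest on low counts.

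At Pdi, both sites lie inside the span (3L, 15137738 to 15142840), 232 bp apart. Site 1, from 15141355 to 15141542, had a fold enrichment of 15.1 in the wing supernatant, 7.45 in the wing pellet, 21.6 in the leg supernatant and 7.74 in the leg pellet, and no gland peak. Its 4 summits lay within 44 bp. In the authors' deposited tables it was higher in the discs, by 1.08 in the wing (SE 0.41, adjusted p = 0.0191) and 1.53 in the leg (SE 0.43, adjusted p = 0.00186), or 2.12-fold and 2.88-fold over the gland. Centred on the chromosome arms, the values were 0.67 and 0.90 (adjusted p = 0.174 and 0.0774) and no longer passed. Site 2, from 15141775 to 15141850, had a leg supernatant peak only, at 5.05, and was not called in the authors' deposited tables (0.71 for wing and 1.29 for leg against gland).

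Sgs1 had 1 site, inside its span (2L, 4937409 to 4941423) from 4939079 to 4939166, with a single peak in the leg pellet at a fold enrichment of 3.76, rank 610 of 1010. No gland list had a summit at this glue gene. In the authors' deposited tables the site gave -0.13 for wing against gland (SE 0.68, adjusted p = 0.958) and 1.34 for leg against gland (SE 0.69, adjusted p = 0.0571). Neither was called. The interval for the wing, -1.47 to 1.20, leaves room for a difference of either sign. That for the leg, -0.016 to 2.69, lies almost wholly on the leg side. The unadjusted p from the deposited Wald statistic for leg against gland was 0.0307.

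**Figure D2:**
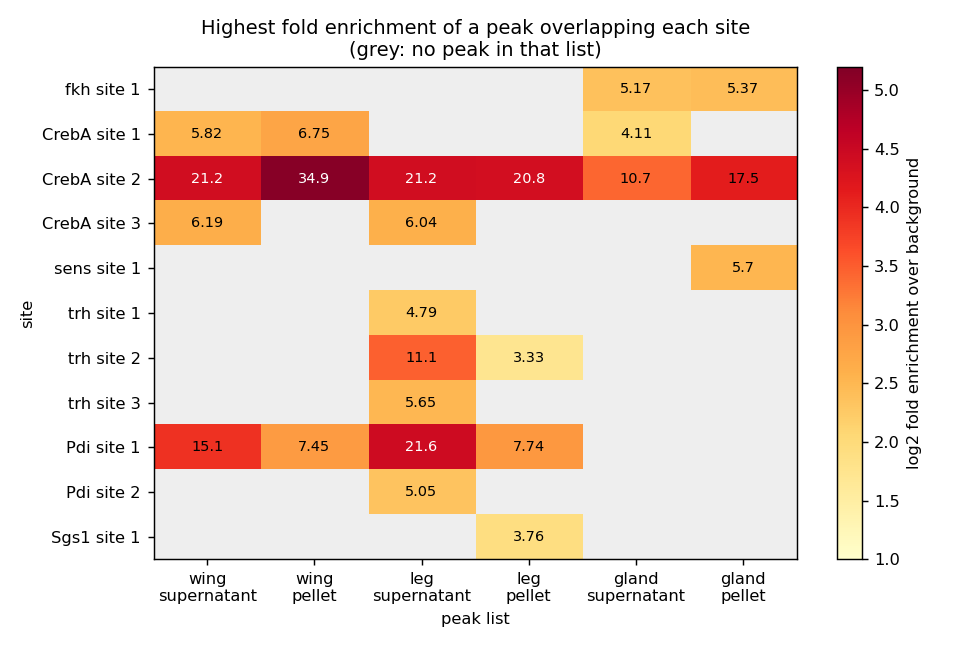
Highest fold enrichment over background of a peak overlapping each of the 11 sites (rows) in each of the 6 lists (columns), with the colour on a log2 scale and grey where a list has no peak. The row of CrebA site 2 is filled in all columns, from 10.7 to 34.9, while 5 sites have a value in 1 column only.

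Set side by side, 5 of the 11 sites were called between wing and gland in the authors' deposited table, where 55.1% of all sites tested were called, so the share at these genes is near the background. Of these, 3 were higher in the wing (CrebA site 2, trh site 3 and Pdi site 1), beside 28.7% of all sites, and 2 in the gland (fkh and sens), beside 26.4%. For leg against gland 6 of 11 were called, beside 52.3% of all sites. Of the 6, 4 were higher in the leg, beside 29.6% of all sites, with trh site 1 joining the same genes, and 2 in the gland, beside 22.7%. The median over the 11 sites was 0.71 for wing and 1.26 for leg against gland, and over all sites 0.46 and 0.63, in the authors' deposited tables. Both comparisons have the gland as the reference and appear to share its libraries, so they cannot be taken as independent of each other. Centred on the chromosome arms, 1 site stayed on the wing side and 2 on the gland side, and 2 stayed on the leg side and 2 on the gland side. The calls at fkh, sens and trh were held under centring and those at CrebA and Pdi were not. Over all sites, centring turned 993 against 914 calls into 581 higher in the wing against 1063 in the gland, and 1024 against 786 into 424 higher in the leg against 1043 in the gland.

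None of the 11 sites was called between wing and leg in the authors' deposited table (DESeq2), where 1.47% of all sites were, and 2 had an unadjusted p under 0.05, trh site 1 and Sgs1. Centring called none either. The values ran from -1.71 to 0.64 with a median of -0.58, beside -0.18 over all sites, and 9 of 11 were on the leg side, in the authors' deposited table. Wide intervals, such as -2.68 to -0.26 at Sgs1, show that the deposited errors leave room for sizeable differences between the discs. At CrebA site 2 the interval was narrower, -0.40 to 0.53.

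**Figure D3:**
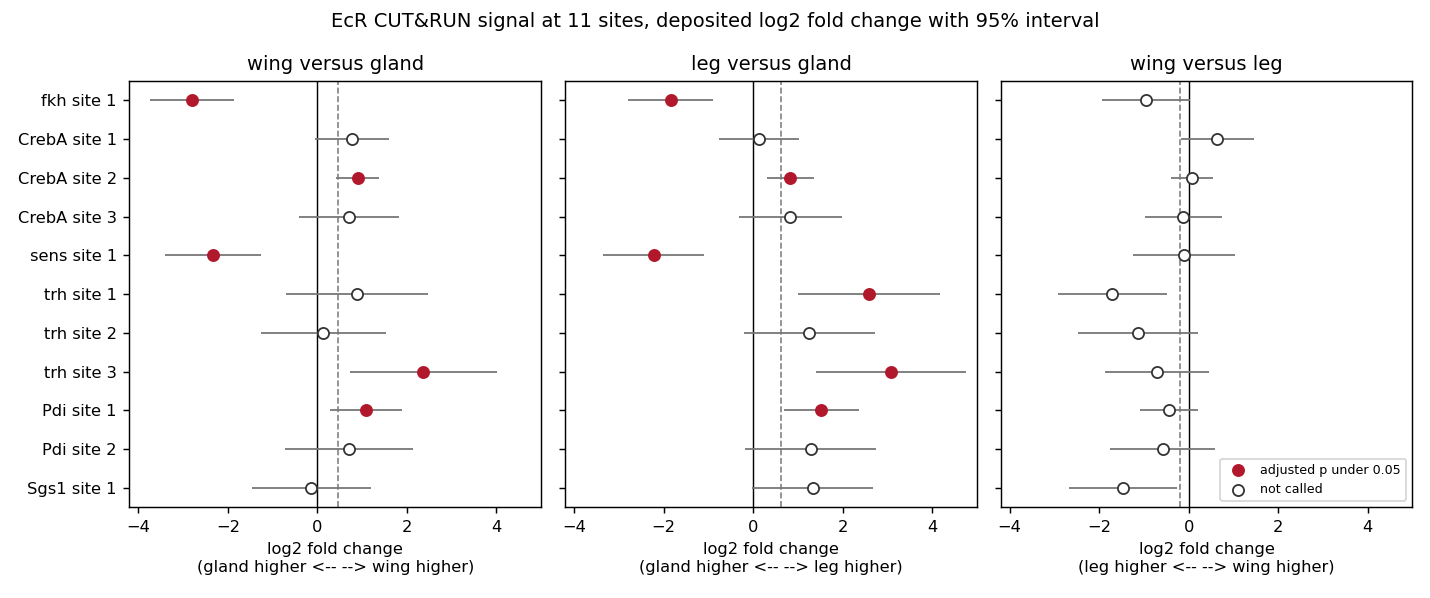
Deposited log2 fold change (x axis) of the 11 sites (y axis) in the 3 comparisons, with bars for the 95% interval from the deposited standard error, filled points for an adjusted p under 0.05 and a dashed line at the median of all sites. fkh and sens stand at -2.80 to -1.84 in both comparisons with the gland, trh site 3 reaches 3.08 in the leg, and no point is filled between wing and leg.

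**Figure D4:**
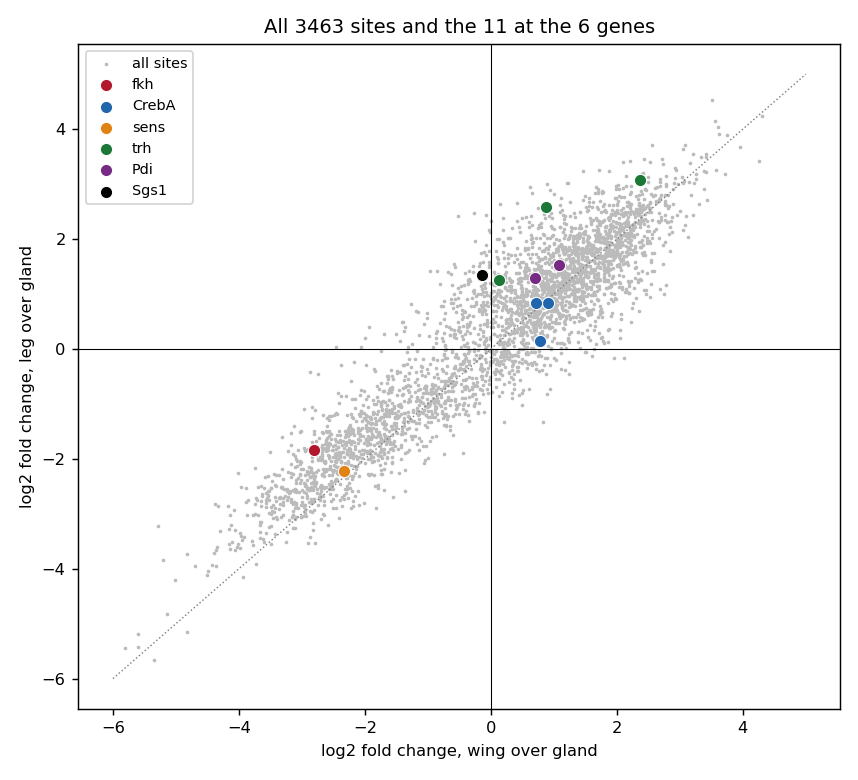
Deposited log2 fold change of wing over gland (x axis) and leg over gland (y axis) for all 3463 sites (grey) and the 11 sites (coloured by gene). The dotted line marks equal values, and both axes have the gland as the reference and appear to share its libraries. The fkh and sens points lie in the lower left, at -2.80 and -2.33 on the x axis, and the other sites lie at 0.14 or above on the y axis.

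The amount of signal behind these values differed among the sites. Per 100 bp of site, the mean normalised count in the authors' deposited tables was 24.5 at CrebA site 2, rank 209 of 3463, and 10.4 at Pdi site 1, rank 652. At Sgs1 it was 7.56, at sens 5.91 and at fkh 4.68, beside a median of 6.21 over all sites. The lowest were trh site 1 at 3.25 and trh site 3 at 3.70. CrebA site 1, with a total of 37.0, is wide and came to 4.68 per 100 bp, so its total reflects its length.

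Beyond 2 kb, the distance to the neighbouring sites varied among these genes. The nearest to sens were 76.4 kb above and 104 kb below, to Sgs1 49.6 kb below and 56.7 kb above, and to Pdi 12.3 kb below and 53.8 kb above. Above fkh, 8.32 kb from its span and outside any coding gene, another site was on the gland side in the authors' deposited tables, at -2.20 against the wing (SE 0.47, adjusted p = 2.32e-05) and -1.89 against the leg (SE 0.50, adjusted p = 0.000859). Its peaks were in the gland lists only, at 5.39 in the supernatant and 5.21 in the pellet, and it lay closer to Noa36 than to fkh. The nearest site below fkh, 26.0 kb away, had a peak in the leg pellet list only. It was not called in the authors' deposited tables, at -0.34 for wing against gland (adjusted p = 0.815) and 0.29 for leg against gland (adjusted p = 0.823). The nearest site below trh, 17.0 kb away in Ptpmeg, was on the gland side in the authors' deposited tables (-2.38 and -2.17, adjusted p = 0.00108 and 0.00513), unlike those inside trh.

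The sites whose pair of fold changes against the gland lay closest to that of fkh, by Euclidean distance over 2 log2 values, were at raw on 2L (distance 0.035), in the shared neighbourhood of Rbsn-5, Acbp1 and Piezo on 2L (0.067) and at Csk on 3R (0.073), where the median distance to all sites was 4.17. Closest to CrebA site 2 were sites at Snoo (0.021) and Akap200 (0.034) on 2L, and a site on X (0.034). The site on X lies in or within 2 kb of the spans of both Mur2B and br. The median distance to all sites was 1.56.

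Other genes of the same roles were looked at for comparison. Of 10 gland transcription factor genes, 5 had a site. Of these, fkh, CrebA, sens and trh were taken up because they hold one. The share is thus in part fixed by that choice and cannot be compared with the 13.8% of all coding genes. The fifth is hth, a Hox cofactor needed for the embryonic gland, with a span of 132 kb that holds or neighbours 10 sites. No site lay at sage, hkb, eyg, Scr or exd. Among the list's 18 sites, the members' included, the authors' deposited tables called 5 for the wing and 2 for the gland, beside 28.7% and 26.4% of all sites, and 7 for the leg and 2 for the gland, beside 29.6% and 22.7%. The medians were 0.75 and 1.16 in the authors' deposited tables, beside 0.46 and 0.63 over all sites. After centring, 2 sites were called for the wing and 2 for the gland, and 4 for the leg and 3 for the gland, with hth site 6 gained on the gland side against the leg. At hth site 2, from 10512525 to 10512664 on 3R, the values were 2.68 for wing (adjusted p = 0.00222) and 3.09 for leg (adjusted p = 0.000766) against gland in the authors' deposited tables. hth site 6, from 10546556 to 10546994, had a peak in 5 of the 6 lists, up to 18.1 in the leg supernatant, and gave -0.029 for wing against gland (adjusted p = 0.925) and -0.57 for leg against gland (adjusted p = 0.101) in the authors' deposited tables, the latter with an adjusted p of 0.000451 after centring. Site 1 of hth, 169 bp outside the span, was the only site of the lists called between wing and leg, at -1.76 in the authors' deposited table (with SE 0.52, adjusted p = 0.0406), and after centring its adjusted p was 0.0882.

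Of 16 genes of the secretory pathway, 3 had a site, beside 13.8% of all coding genes. These were Pdi, which was taken up because it holds one, Sar1 and Hsc70-3. At Sar1, a small GTPase that forms vesicles leaving the endoplasmic reticulum, the authors' deposited table gave -2.08 for wing against gland (SE of 0.67, adjusted p = 0.00465), and at Hsc70-3, the chaperone BiP, it gave -1.75 (SE 0.57, adjusted p = 0.00641). Both were thus higher in the gland than in the wing, the opposite side from Pdi, and neither passed against the leg (-1.48 and -1.25, adjusted p = 0.0583 and 0.0668, in the authors' deposited tables), though both did after centring (adjusted p = 0.00794 and 0.00548). Of 12 glue genes, 11 had no site and no summit in any list, among them Sgs3, Sgs4, Sgs5, Sgs7, Sgs8 and Eig71Ee. Only 13.8% of all coding genes had a site, so the lack of one is common. Sgs1 was taken up because it holds one. Genes of the fat body, a tissue that adheres to dissected glands, were also looked at. Of these, 5 of 6 had a site, beside 13.8% of all coding genes. The lists were chosen with earlier results of these data known, so such shares may be in part fixed by that choice. Of the 6 sites at fat body genes, 4 were higher in the gland than in the wing, beside 26.4% of all sites. Against the leg, the same 4 were higher in the gland, beside 22.7%. These 4 had peaks in gland lists only, so that direction was favoured in advance. The medians of the 6 sites were -2.47 and -1.92 in the authors' deposited tables, beside 0.46 and 0.63 over all sites. Fbp2 stood at -3.03 for wing against gland in the authors' deposited table, with an SE of 0.54 and an adjusted p of 2.79e-07, beside -2.80 at fkh and -2.33 at sens, while the site at Lsp1gamma was higher in both discs (2.00-fold in the wing and 3.74-fold in the leg). What part fat body cells had in the values at fkh and sens was not tested.

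Depth per library is unknown, since the tables give no value per library, and the labels do not say whether the 2 libraries of a group came from separate dissections. The p-values measure the spread between the libraries of each fit, which may be technical, and whether those were replicates, fractions or both is not stated in the sources used here. The lists held 936 to 1596 peaks, with median fold enrichments of 4.15 to 6.84, and names of single peaks point to merged wing IgG libraries as the control, the gland's lists included.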

How the data were processed

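The members, gene lists and alternatives were chosen with earlier results of these data known. Per the submitters' processing notes, the build was dm6 and the tools were MACS2 2.1.2, DESeq2, R 3.5.2, bedtools 2.26, Bowtie2 2.3.4.1, Picard 2.2.4 and SAMtools 1.9, with no order or settings. The deposited peak lists hold a fold enrichment per peak (a ratio over background), a −log10 q-value and, as another kind of value, the other deposited column of summit offsets in bp. Per site the authors deposited a mean normalised count (a signal), a log2 fold change with its standard error, the Wald statistic (a score), a p-value, an adjusted p-value and a class in words, an other kind of value. The sources used here do not name the libraries behind each fit. The mean was identical in the 3 tables at all 3463 sites, and the fold changes added up between tables to within 0.01 at 3462 of them. At the members the fold change over its error was 0.819 to 3.01 times the deposited statistic, so intervals are approximate.

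With no counts per library, the deposited adjusted p with a threshold of 0.05 served as the test. Starts are 1-based. Gene spans came from the RefSeq table of assembly Release 6 (13951 coding genes with a span, all named list genes matched), which holds no strand, exons or introns. Centring subtracted the median log2 fold change of 2L, 2R, 3L, 3R and X (0.42 for wing and 0.63 for leg against gland, -0.19 between them), with normal p-values from the deposited standard error, adjusted over all sites by Benjamini-Hochberg. It was tried on simulated data in which few sites differed. Many sites differed against the gland, so the simulation does not test centring there. Named genes were the 6 members, genes and sites beside theirs, the 3 sites most like the strongest call on each side, and list genes with a site. Python 3.11.15, pandas 2.3.3 and scipy 1.17.1 were used.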

Additional observations from a re-analysis of the deposited data

How the results depend on the processing

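With fold changes centred on the chromosome arms, 3 of the 11 sites were called between wing and gland in place of 5, and without the 2 kb flank also 3, since the fkh and sens sites lie outside the spans. For leg against gland and for wing against leg, no alternative moved the total count at these genes by over 1.5 times. The split by direction moved more for leg against gland. Without the flank, calls higher in the gland went from 2 to 0, and with centring, calls higher in the leg went from 4 to 2. Of the 33 fold changes of the members, 25 kept their direction and side of the threshold when centred, and 4 kept their direction but lost the call, those of CrebA site 2 and Pdi site 1. The 4 that changed sign had not been called: CrebA site 1 for leg against gland (-0.49), trh site 2 for wing against gland (-0.29), and CrebA site 3 (0.070) and sens (0.080) between wing and leg. At an adjusted p under 0.01, 20 sites of all were called between wing and leg in place of 49. Where a peak needed a −log10 q of at least 10, 2 of the 6 genes had a leg pellet summit in place of 4. In the same setting 1 gene had a gland supernatant summit in place of 2, and 1 a gland pellet summit in place of 3. The gene left in both gland lists was CrebA. The fkh peaks, with a −log10 q of 4.62 in the gland supernatant and 4.96 in the gland pellet, and the sens peak, with 6.07, were lost. Without the flank, CrebA was the 1 gene left in the gland supernatant and the 1 gene left in the gland pellet list. No paired analysis was possible because the files hold no values per library, and leaving out a library was not possible for the same reason. The motif count was not run, as no genome was used here. At 7 of the 11 sites the mean normalised count, which also grows with the width of a site, lay below the median over all sites, 9.59; depth per library is unknown.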
